A study of Homo sapiens with 8 samples.

Results

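Glycogen, the branched glucose store of liver and muscle, is built and dismantled by a small set of enzymes, and 9 genes of that set were followed here across 8 RNA-seq libraries of HepG2, an established line from a human hepatocellular carcinoma. The 9 genes were named one by one and looked up by symbol in a table of 26716 genes, and all 9 were found. PPP1R3B and PPP1R3C encode subunits that bring protein phosphatase 1 to glycogen, GYS1 and GYS2 encode glycogen synthases, GBE1 encodes the branching enzyme, PYGL and PYGB encode glycogen phosphorylases, and UGP2 and PGM1 encode enzymes that connect glycogen with the sugar phosphates of the cell.

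All cells had received 1 nM of a microRNA mimic or its negative control together with 30 nM of an siRNA or its negative control, and RNA was taken 72 h later. The 4 groups had 2 libraries each. The miR-552-3p group received the miR-552-3p mimic and control siRNA. The si-importin8-miR-552-3p group received the mimic and an siRNA against importin8, the nuclear import receptor encoded by IPO8. The si-importin8-NC group received the importin8 siRNA and the control mimic, and the NC group received both controls. All groups were thus transfected with both kinds of RNA, no untransfected cells were among them, and HepG2 is a tumour line, not normal liver. The title of the series places the question in the effect of miR-552-3p on glycolipid metabolism through the receptors FXR and LXR.

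In hepatocytes, glucose 6-phosphate is turned into glucose 1-phosphate by phosphoglucomutase (PGM1) and then into UDP-glucose, the donor of glucose units, by UDP-glucose pyrophosphorylase (UGP2). Glycogen synthase lengthens the chains, the branching enzyme adds branch points, and phosphorylase removes glucose 1-phosphate from chain ends. Protein phosphatase 1, held on the particle by targeting subunits such as PPP1R3B and PPP1R3C, activates the synthase and inactivates the phosphorylase by dephosphorylation. Normal liver is known for the liver isoforms of synthase and phosphorylase, GYS2 and PYGL, and for PPP1R3B.

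The mimic is shown first, because its seed is the stretch by which a microRNA pairs with messenger RNA. The mature sequence (RefSeq, GRCh38.p14, chr1:34669614-34669634, minus strand) has 21 bases, and the capitals mark the seed, bases 2 to 8.
hsa-miR-552-3p: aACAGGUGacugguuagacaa

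The DNA letters complementary to this seed are CACCTGT. In untranslated regions a match was CACCTGT or ACCTGTA, which lacks the first letter and ends in an added A. In the 3′ untranslated region of each gene's principal transcript (GENCODE annotation of GRCh38), PPP1R3B held 1 match, in 4539 bases, and none of the other 8 genes held one. Of 18904 genes searched in the same way, 19.9% held a match of either kind, with a median length of 877 bases.

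Promoter windows of 300 bases, 250 before and 50 after a start site of the gene, were at hand for 7 of the 9 genes (RefSeq, GRCh38.p14), with 10 windows in all. The whole seed match, CACCTGT or ACAGGTG, stood in none of them, against 4.11% of 35116 promoters. Its 6-letter core, CAGGTG or CACCTG, stood in 4 of the 10 windows, of PGM1, UGP2, GBE1 and PYGB, against 20.6% of all promoters. Of the 4 windows with the core, those of PGM1 (chr1:63622966-63623265) and GBE1 lie wholly inside the gene as placed below, not at its outermost start. The same holds for windows without the core of PGM1, UGP2 and PYGL. The E-box CACGTG stood in the window of PPP1R3C only, against 7.26% of all, and the cAMP response element TGACGTCA in none, against 1.85%. The hypoxia response core ACGTG or CACGT, which overlaps the E-box, stood in 4 of the 10 windows, of PGM1, UGP2, GBE1 and PPP1R3C, against 21.4%. The motifs were chosen with the changes of these genes known, and a match describes letters, not binding. The promoters of GBE1, PYGB and PPP1R3C are printed, since these genes had large changes at well-measured levels. Capitals mark CAGGTG in the first 2, beginning at positions -168 and -170 from the start site of the window. In PPP1R3C they mark CACGTG, beginning at -45. The 3 windows lie at chr3:81761596-81761895 (minus strand), chr20:25247835-25248134 (plus strand) and chr10:91633022-91633321 (minus strand).
GBE1 promoter: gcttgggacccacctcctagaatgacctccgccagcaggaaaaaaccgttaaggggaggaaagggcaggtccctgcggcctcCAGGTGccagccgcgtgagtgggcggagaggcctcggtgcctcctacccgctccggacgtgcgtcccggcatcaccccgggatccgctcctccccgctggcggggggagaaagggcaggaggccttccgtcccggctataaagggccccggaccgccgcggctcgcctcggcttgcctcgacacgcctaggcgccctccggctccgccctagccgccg
PYGB promoter: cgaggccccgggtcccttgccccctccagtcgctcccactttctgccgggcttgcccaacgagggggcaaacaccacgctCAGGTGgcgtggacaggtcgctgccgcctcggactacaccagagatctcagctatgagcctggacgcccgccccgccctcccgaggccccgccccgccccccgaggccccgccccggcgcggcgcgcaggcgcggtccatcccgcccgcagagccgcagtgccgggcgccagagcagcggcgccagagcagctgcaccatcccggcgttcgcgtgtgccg
PPP1R3C promoter: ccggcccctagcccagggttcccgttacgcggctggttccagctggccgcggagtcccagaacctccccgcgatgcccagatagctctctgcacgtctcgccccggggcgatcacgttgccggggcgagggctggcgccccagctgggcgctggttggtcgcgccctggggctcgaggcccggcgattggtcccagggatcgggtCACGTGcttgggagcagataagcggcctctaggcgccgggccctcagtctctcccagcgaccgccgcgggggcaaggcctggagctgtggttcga

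The table gave estimated counts and FPKM, a level scaled to transcript length and library depth. Libraries held between 21608563 and 22102373 estimated counts, and 17715 genes passed the filter on low counts. A gene is called changed where edgeR's quasi-likelihood test over all 17715 genes gave a Benjamini-Hochberg adjusted p under 0.05, and changes are log2 fold changes of counts with their standard error (SE). Whether the pair of libraries of a group stems from separate cultures is not said in the labels; the spread that enters each p-value may therefore be technical. In bulk RNA, a change in the share of cells that use a gene and a change in its RNA per cell cannot be told apart. IPO8 stood at 4.94 and 4.64 FPKM in miR-552-3p, 1.18 and 1.40 in si-importin8-miR-552-3p, 2.07 and 1.93 in si-importin8-NC, and 6.80 and 6.87 in NC. Its siRNA effect was -1.65 with the mimic and -1.57 with the control mimic, and its mimic effect with control siRNA was -0.44 (adjusted p = 0.000826). All 10 hepatocyte markers were at 1 FPKM or more, and their sum was 19479 to 20138 FPKM in miR-552-3p, 28947 to 29286 in si-importin8-miR-552-3p, 27537 to 28948 in si-importin8-NC and 26200 to 29092 in NC. ALB was the largest part, at 9057 to 9119 FPKM in miR-552-3p and 11085 to 11940 in NC. FGB went the other way, at 72.7 and 75.3 FPKM in miR-552-3p and 9.4 and 6.85 in NC. Between these groups AFP and TF overlapped, and the remaining markers were lower in miR-552-3p. Of 6 skeletal muscle markers found, ACTA1 alone reached 1 FPKM, and their sum was 13.6 to 14.1 FPKM in miR-552-3p, 4.39 to 4.88 in si-importin8-miR-552-3p, 1.23 to 1.26 in si-importin8-NC and 0.66 to 1.27 in NC; PYGM, the muscle phosphorylase, stayed at or below 0.18 FPKM. PDGFRB alone of 6 fibroblast markers reached 1 FPKM. Of 5 blood and endothelium markers found, PECAM1 and LYZ did, with PTPRC at or below 0.06 FPKM; LYZ was at 590 to 611 FPKM in miR-552-3p, 975 to 984 in si-importin8-miR-552-3p, 1396 to 1405 in si-importin8-NC and 1572 to 1754 in NC. A single gene took 6.90% to 8.92% of the counts in the 6 libraries with mimic or siRNA and 11.3% to 11.6% in the NC libraries. The NC replicates differed more from each other than those of any other group (chi-square of their counts over genes, per degree of freedom, 9.80, against 4.30 to 7.21). The part of these differences in the results below was not tested.

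Per length of transcript, the 9 genes spanned a wide range of levels. In the miR-552-3p libraries UGP2 averaged 80.9 ± 2.0 FPKM (SD, n = 2 here and below), PYGB 73.5 ± 0.099, GBE1 64.1 ± 0.636, PGM1 41.8 ± 0.537, PYGL 29.5 ± 0.962, GYS1 16.4 ± 0.990 and PPP1R3C 4.10 ± 0.346. The liver synthase GYS2 was at 0.89 ± 0.184 FPKM there and the liver targeting subunit PPP1R3B at 0.42 ± 0.028. In the NC libraries the order was PGM1 at 73.6 ± 6.02, UGP2 at 55.6 ± 7.28, PYGL at 39.3 ± 1.09, PYGB at 34.4 ± 1.05, GBE1 at 26.7 ± 6.19, PPP1R3C at 21.3 ± 0.728, GYS1 at 16.1 ± 0.332, GYS2 at 0.10 ± 0.071 and PPP1R3B at 0.02 FPKM, the last 2 on fewer than 10 counts a library. The liver isoforms GYS2 and PPP1R3B were thus the scarcest transcripts of the 9 in every group of this line.

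**Figure D1:**
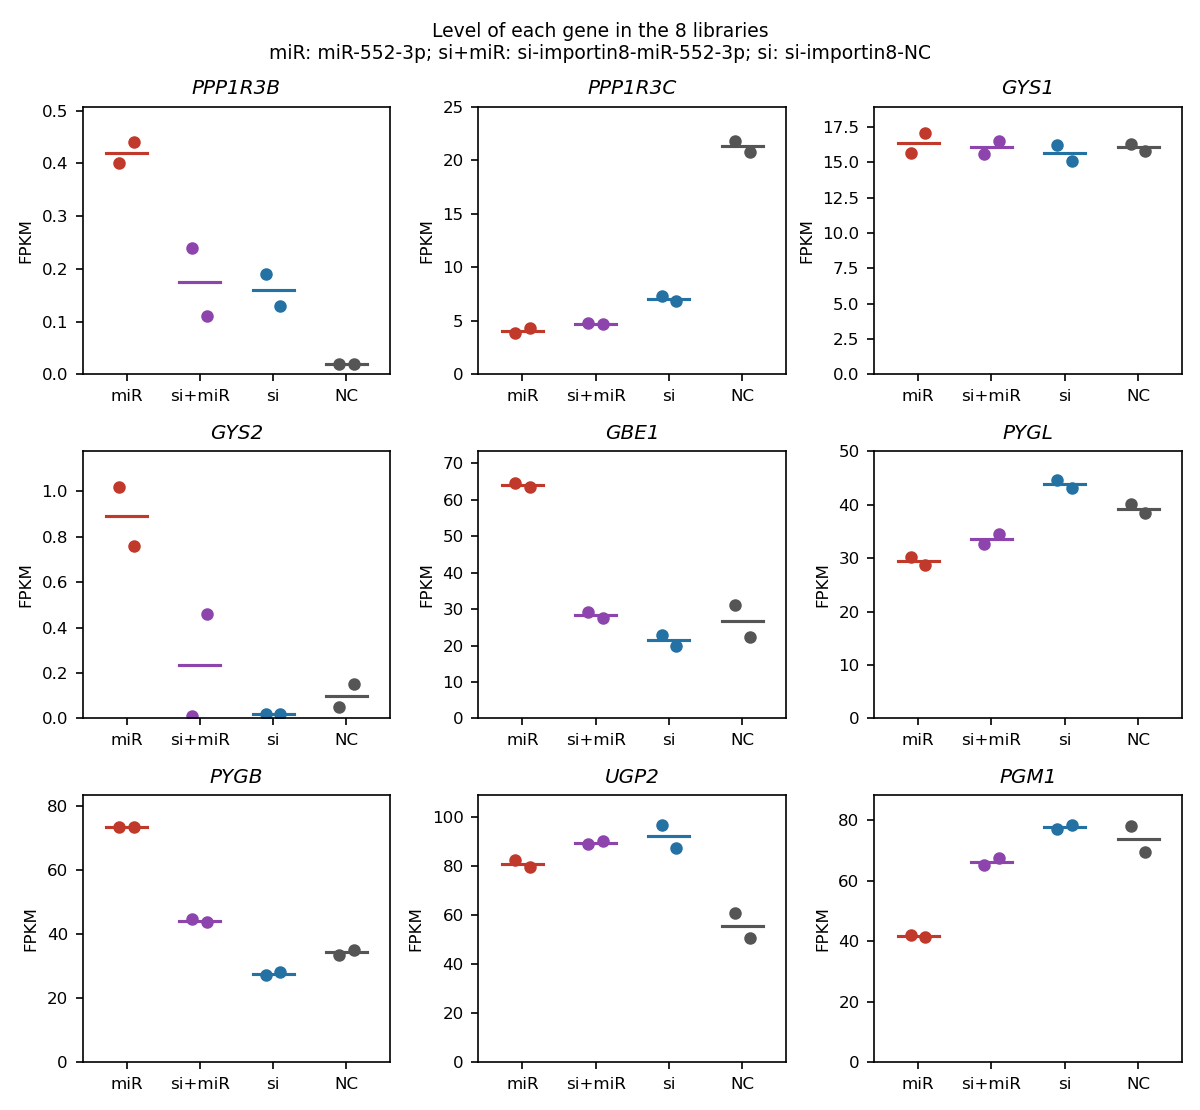
FPKM of each of the 9 genes in the 8 libraries, by group; points are libraries and lines are the means of 2. PPP1R3C is highest in NC at 21.8 and 20.8 FPKM, GBE1 and PYGB are highest in miR-552-3p, and GYS1 is between 15.1 and 17.1 FPKM in all 8 libraries.

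With control siRNA, the mimic was followed by higher levels of PPP1R3B, GYS2, GBE1, PYGB and UGP2 and lower levels of PPP1R3C, PYGL and PGM1. Thus 5 of the 9 genes rose, 3 fell and GYS1 did not pass the test. Over all genes tested in this comparison 58.4% were called, 28.9% higher and 29.5% lower, so that a call by itself was common. By CPM, counts scaled to a common depth and used for every count of overlaps, the libraries of the groups did not overlap for 8 of the 9 genes, as for 78.5% of all genes. PPP1R3B reached 10 counts in 6 of the 8 libraries and GYS2 in 3, so both passed the low-count filter only through the groups where they were high; the other 7 genes reached it in all 8. Reads shared by near-identical stretches of paralogs were divided by an estimate, and PYGB and GYS2 overlap other annotated genes, ABHD12 and SPX, without the use of strand being given in the sources used here.

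The targeting subunits moved in opposite directions. PPP1R3C, which encodes the subunit also called PTG, was at 3.85 and 4.34 FPKM in miR-552-3p, 4.78 and 4.74 in si-importin8-miR-552-3p, 7.31 and 6.85 in si-importin8-NC, and 21.83 and 20.80 in NC. The 4 groups did not overlap, and both NC libraries stood well above the other 6. Its mimic effect with control siRNA was -2.31 (SE 0.10, adjusted p = 2.59e-08), and its absolute size was at the percentile 91.8 of all genes tested. In this comparison the percentile was 97.2 for PPP1R3B, 95.7 for GYS2, 79.6 for GBE1 and 75.3 for PYGB. Nearer the middle or below it were PGM1 at 59.4, UGP2 at 50.9, PYGL at 32.8 and GYS1 at 9.49. PPP1R3B, which encodes the liver subunit GL, had 51.0 and 55.6 estimated counts in miR-552-3p, 21.2 and 15.9 in si-importin8-miR-552-3p, 17.9 and 18.0 in si-importin8-NC, and 3.22 and 4.26 in NC. Counts are given because near-equal counts of this gene came with unequal FPKM, 0.19 and 0.13 in si-importin8-NC. Both miR-552-3p libraries were highest and both NC libraries lowest, while the siRNA groups overlapped. The mimic effect was 3.95 (SE 0.43, adjusted p = 2.54e-05), and the summed counts of 107 in miR-552-3p and 7 in NC, scaled for depth, gave a ratio of 16.0 with a 95% counting interval of 7.50 to 40.7, which covers counting error only, no molecular identifiers being named in the labels. Despite this rise its FPKM stayed below that of PPP1R3C in every library, at 0.40 and 0.44 in miR-552-3p and 0.02 in both NC libraries. The sum of the pair was 4.52 ± 0.375 FPKM in miR-552-3p and 21.3 ± 0.728 in NC.

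The synthases differed in a different way. GYS1, the synthase isoform of muscle and most other tissues (chr19:48968125-48993310, minus strand), was at 15.69 and 17.09 FPKM in miR-552-3p, 15.60 and 16.52 in si-importin8-miR-552-3p, 16.24 and 15.12 in si-importin8-NC, and 16.30 and 15.83 in NC. The groups overlapped, and the mimic effect with control siRNA was 0.10 (SE 0.07, adjusted p = 0.272), with a 95% interval of -0.06 to 0.26 on the log2 scale. GYS2, the liver isoform (chr12:21536189-21604847, minus strand), had 50.3 and 35.2 estimated counts in miR-552-3p, 1.33 and 20.3 in si-importin8-miR-552-3p, 1 and 1.63 in si-importin8-NC, and 2.98 and 6.45 in NC. Both miR-552-3p libraries were above the other 6, and the si-importin8-miR-552-3p libraries differed from each other by more than the NC libraries did. The mimic effect was 3.27 (SE 0.92, adjusted p = 0.0131), but it missed the threshold without NC replicate 1 (2.88, adjusted p = 0.0841) and without miR-552-3p replicate 1 (3.02, adjusted p = 0.0619). Summed counts of 85 in miR-552-3p and 9 in NC gave a ratio of 9.88 (counting interval 4.96 to 22.3). GYS2 FPKM was 0.0547 ± 0.0145 of that of GYS1 in miR-552-3p, the highest ratio of the 4 groups, and 0.00627 ± 0.00453 in NC.

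GBE1, whose loss causes the glycogen storage disorder with abnormally long chains known as Andersen disease (chr3:81489699-81762161, minus strand), was at 64.51 and 63.61 FPKM in miR-552-3p, 29.22 and 27.44 in si-importin8-miR-552-3p, 22.99 and 19.91 in si-importin8-NC, and 31.05 and 22.29 in NC. The miR-552-3p libraries were above the other 6, and the NC libraries overlapped with those of both siRNA groups. The mimic effect with control siRNA was 1.33 (SE 0.17, adjusted p = 0.000555).

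The phosphorylases also went opposite ways. PYGB, the brain and fetal isoform (chr20:25248069-25298014, plus strand), was at 73.61 and 73.47 FPKM in miR-552-3p, 44.85 and 43.77 in si-importin8-miR-552-3p, 27.30 and 28.13 in si-importin8-NC, and 33.69 and 35.18 in NC. No pair of groups overlapped, and both groups with the mimic lay above both groups without it. The mimic effect with control siRNA was 1.16 (SE 0.06, adjusted p = 8.95e-08). PYGL, the liver isoform whose loss causes Hers disease (chr14:50857891-50944736, minus strand), was at 30.13 and 28.77 FPKM in miR-552-3p, 32.73 and 34.55 in si-importin8-miR-552-3p, 44.72 and 43.21 in si-importin8-NC, and 40.07 and 38.53 in NC. The order of the groups was that of PYGB turned round, again with no overlap. Its mimic effect was smaller, -0.36 (SE 0.07, adjusted p = 0.00101). PYGB made up 71.4% ± 0.639 of the FPKM of the pair in miR-552-3p, 56.9% ± 1.36 in si-importin8-miR-552-3p, 38.7% ± 1.08 in si-importin8-NC and 46.7% ± 1.45 in NC, so the more abundant phosphorylase transcript was the brain form with the mimic and the liver form without it. Their sum was 103 ± 1.06 FPKM in miR-552-3p, 78.0 ± 0.523 in si-importin8-miR-552-3p, 71.7 ± 0.481 in si-importin8-NC and 73.7 ± 0.035 in NC.

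The enzymes on either side of glucose 1-phosphate moved apart. UGP2 (chr2:63840940-63891562, plus strand) was at 82.29 and 79.46 FPKM in miR-552-3p, 88.77 and 90.00 in si-importin8-miR-552-3p, 96.58 and 87.38 in si-importin8-NC, and 60.77 and 50.47 in NC. The NC libraries were the lowest 2 of the 8. The mimic effect with control siRNA was 0.61 (SE 0.10, adjusted p = 0.000696). PGM1 (chr1:63593276-63660245, plus strand) was at 42.17 and 41.41 FPKM in miR-552-3p, 65.07 and 67.46 in si-importin8-miR-552-3p, 76.91 and 78.36 in si-importin8-NC, and 77.87 and 69.36 in NC. Its miR-552-3p libraries were the lowest 2, and the groups without the mimic overlapped. The mimic effect was -0.75 (SE 0.08, adjusted p = 1.83e-05). UGP2 FPKM was 1.94 ± 0.023 times that of PGM1 in miR-552-3p, 1.35 ± 0.021 times in si-importin8-miR-552-3p, 1.19 ± 0.099 times in si-importin8-NC and 0.754 ± 0.037 times in NC.

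**Figure D2:**
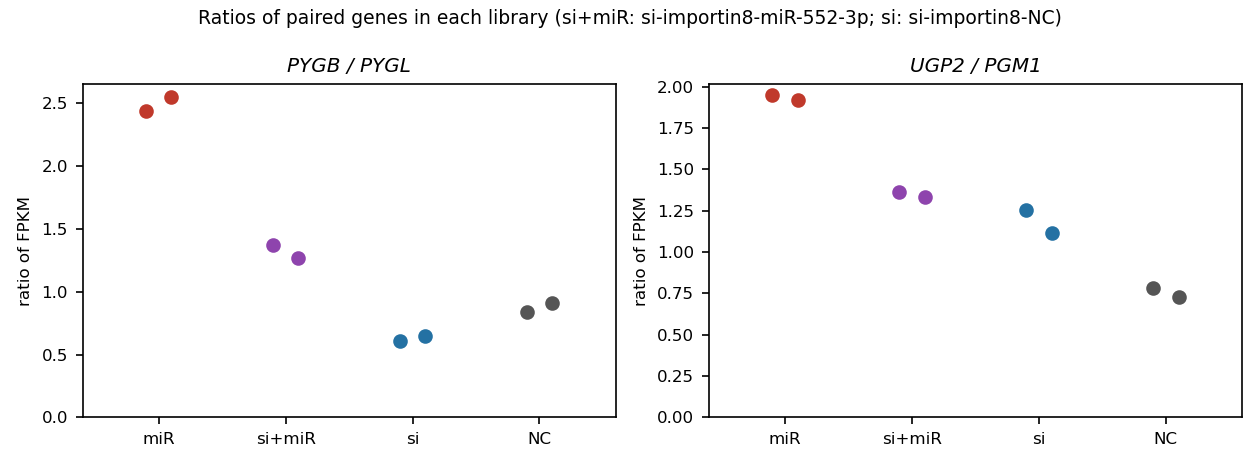
Ratios of FPKM within each library for PYGB over PYGL and UGP2 over PGM1; each point is a library. Both ratios are highest in miR-552-3p, at 2.50 and 1.94 on average, and UGP2 over PGM1 is lowest in NC, at 0.754.

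Under importin8 siRNA, 3 of the 9 genes passed the test on the mimic. PYGB rose by 0.75 (SE 0.06, adjusted p = 1.57e-05), PPP1R3C fell by 0.50 (SE 0.10, adjusted p = 0.00376) and PYGL fell by 0.32 (SE 0.07, adjusted p = 0.00459), in si-importin8-miR-552-3p relative to si-importin8-NC. The other 6 genes did not pass the test, and over all genes 31.7% were called in this comparison, 15% higher and 16.7% lower. The libraries of the groups did not overlap in CPM for 6 of the 9 genes, against 68% of all genes; GYS1 is among the 6, though its FPKM overlapped. GBE1 had 0.50 (SE 0.17, adjusted p = 0.0739) and PGM1 -0.16 (adjusted p = 0.153); both were called when only the 4 libraries compared were fitted (GBE1 adjusted p = 0.000626, PGM1 0.0235) and when either NC library was left out (GBE1 0.00044 and 0.000589, PGM1 0.0376 and 0.0307), and GBE1 also with DESeq2 (adjusted p = 0.00214) and limma-voom (0.0356). PPP1R3B had 0.13 (adjusted p = 0.834), with summed counts of 37 in si-importin8-miR-552-3p and 36 in si-importin8-NC and a ratio of 1.09 (counting interval 0.672 to 1.78). UGP2 had 0.03 (adjusted p = 0.858), within an interval of -0.20 to 0.26, and GYS1 had 0.10 (adjusted p = 0.327), within -0.06 to 0.27. The GYS2 value of 2.79 (adjusted p = 0.108) rested on single libraries: it was 3.72 (adjusted p = 0.00966) without si-importin8-miR-552-3p replicate 1 and -0.43 without replicate 2.

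The difference between the mimic effects, that under importin8 siRNA minus that under control siRNA, was tested as an interaction. It was called for 6 of the 9 genes, against 31.3% of all genes (14.2% higher, 17.1% lower), and in each the effect under importin8 siRNA was the nearer to 0. Over all genes tested, the median absolute log2 mimic effect was likewise smaller under importin8 siRNA, 0.316 against 0.594 with control siRNA. A smaller effect was thus not particular to these genes. The differences were -3.82 for PPP1R3B (SE 0.58, adjusted p = 0.000751), -0.83 for GBE1 (SE 0.24, adjusted p = 0.0431), -0.58 for UGP2 (SE 0.15, adjusted p = 0.0144) and -0.41 for PYGB (SE 0.08, adjusted p = 0.00378), all of which had risen on the mimic. They were 1.82 for PPP1R3C (SE 0.14, adjusted p = 9.55e-06) and 0.59 for PGM1 (SE 0.11, adjusted p = 0.00263), which had fallen. PYGL had 0.04 (interval -0.17 to 0.25, adjusted p = 0.817), with mimic effects of -0.32 under importin8 siRNA and -0.36 under control siRNA. GYS1 had 0.00 (interval -0.23 to 0.23), and GYS2 had -0.48, with an interval as wide as -4.89 to 3.94. The GBE1 call was lost in 7 of 14 alternatives, among them each fit without 1 library of a group other than NC (adjusted p 0.0631 to 0.124), and the UGP2 call without miR-552-3p replicate 1 (-0.57, adjusted p = 0.0501) and without si-importin8-NC replicate 1 (-0.49, adjusted p = 0.059).

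**Figure D3:**
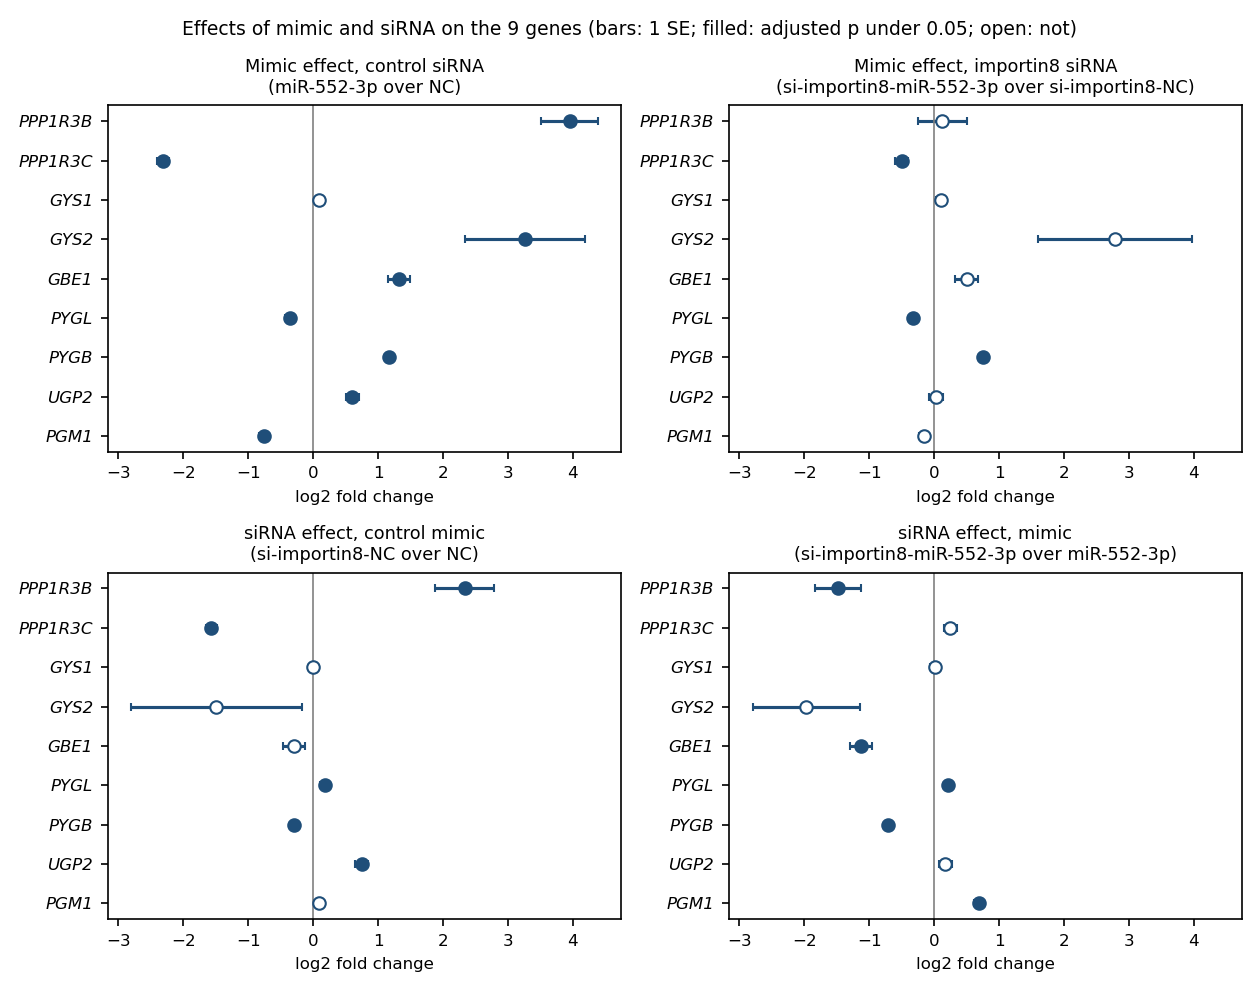
Log2 fold changes of the 9 genes in the 4 pairwise comparisons, each over its control group, with bars of 1 SE; filled points have an adjusted p under 0.05. The mimic effect of PPP1R3B is 3.95 with control siRNA and 0.13 with importin8 siRNA, and that of PYGB is 1.16 and 0.75.

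The importin8 siRNA alone, with the control mimic, moved several of these genes as well. PPP1R3C fell by 1.57 (SE 0.09, adjusted p = 7.88e-07) and PYGB fell by 0.29 (SE 0.06, adjusted p = 0.00228), while PPP1R3B rose by 2.34 (SE 0.46, adjusted p = 0.00195), UGP2 rose by 0.75 (SE 0.10, adjusted p = 0.000281) and PYGL rose by 0.18 (SE 0.07, adjusted p = 0.049), in si-importin8-NC relative to NC. That made 3 higher and 2 lower of 9, against 47% of all genes called (25.4% higher, 21.6% lower). Groups did not overlap for 6 of the 9 genes, against 73.5% of all. The summed counts of PPP1R3B, 36 in si-importin8-NC and 7 in NC, gave a ratio of 5.20 (counting interval 2.28 to 13.8). This comparison shares the NC libraries with the mimic comparison under control siRNA, so that the values stand side by side and are not independent: PPP1R3C had -1.57 on the siRNA and -2.31 on the mimic, PPP1R3B 2.34 and 3.95, UGP2 0.75 and 0.61, PYGB -0.29 and 1.16, and PYGL 0.18 and -0.36. The PYGL call was lost in 12 of 15 alternatives (0.11 to 0.22 where lost, adjusted p 0.0513 to 0.224).

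GBE1 and PGM1 depended on which NC library was kept. GBE1 had -0.29 (adjusted p = 0.219), with 0.00 without NC replicate 1 and -0.55 (adjusted p = 0.000765) without NC replicate 2. PGM1 had 0.10 (adjusted p = 0.347), with 0.21 (adjusted p = 0.016) without NC replicate 1 and -0.02 without NC replicate 2. NC replicate 1 was above replicate 2 in FPKM for GBE1, UGP2, PGM1, PPP1R3C, GYS1 and PYGL. It was below replicate 2 for PYGB and GYS2 and equal to it for PPP1R3B. GYS1 had 0.00 (interval -0.16 to 0.17, adjusted p = 0.968). GYS2 had -1.49 (adjusted p = 0.392), with 3 summed counts in si-importin8-NC and 9 in NC (ratio 0.337, counting interval 0.0587 to 1.35).

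In cells with the mimic, PYGB fell by 0.70 (SE 0.06, adjusted p = 1.36e-05), GBE1 fell by 1.12 (SE 0.17, adjusted p = 0.00282) and PPP1R3B fell by 1.49 (SE 0.35, adjusted p = 0.00886) on importin8 siRNA, in si-importin8-miR-552-3p relative to miR-552-3p. PGM1 rose by 0.69 (SE 0.08, adjusted p = 0.000114) and PYGL rose by 0.21 (SE 0.07, adjusted p = 0.0327), so that 2 of the 9 genes rose and 3 fell. Over all genes 33.5% were called (17.3% higher, 16.2% lower). Groups did not overlap for 8 of the 9 genes, against 67.8% of all. The PPP1R3B call was lost with DESeq2 (adjusted p = 0.0845) and without miR-552-3p replicate 2 (-1.39, adjusted p = 0.0617) or si-importin8-miR-552-3p replicate 2 (-1.29, adjusted p = 0.063), and that of PYGL in 5 alternatives, with DESeq2 (adjusted p = 0.0787) and without any 1 of these 4 libraries (0.0685 to 0.146). PPP1R3C had 0.25 (SE 0.10, adjusted p = 0.0909) and GYS1 0.01 (interval -0.15 to 0.17). UGP2 had 0.17 (adjusted p = 0.239) and was called with only the 4 libraries compared (adjusted p = 0.0301) and without NC replicate 1 (adjusted p = 0.0452). GYS2 had -1.97 (adjusted p = 0.103), with 21 summed counts in si-importin8-miR-552-3p and 85 in miR-552-3p (ratio 0.254, counting interval 0.15 to 0.414), and was called with limma-voom (-2.89, adjusted p = 0.028) and without si-importin8-miR-552-3p replicate 2 (-5.20, adjusted p = 0.00569).

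Genes that act beside these 9 were taken from 5 lists of textbook roles with 55 genes in all, of which 54 were in the table and 52 were tested. On the mimic with control siRNA 21 of the 52 rose and 15 fell (median 0.09, against -0.01 over all genes tested, of which 58.4% were called). Of 9 other enzymes of glycogen 4 rose and 3 fell. STBD1, a protein that anchors glycogen to membranes, had 9.58 ± 1.69 FPKM in miR-552-3p and 3.04 ± 0.276 in NC (1.74, adjusted p = 0.000116). Laforin (EPM2A), which removes phosphate from glycogen, had 0.855 ± 0.148 FPKM in miR-552-3p and 2.44 ± 0.205 in NC (-1.33, adjusted p = 0.000221), and the liver glycogenin GYG2, a primer of new particles, had 2.07 ± 0.198 in miR-552-3p and 4.04 ± 0.177 in NC (-0.86, adjusted p = 0.000103). Among 8 genes of protein phosphatase 1 and its other targeting subunits 2 rose and 4 fell. The subunit PPP1R3E had 2.49 ± 0.163 FPKM in miR-552-3p and 9.44 ± 0.240 in NC (-2.23, adjusted p = 2.21e-07), and the inhibitor PPP1R2 had 30.2 ± 1.23 in miR-552-3p and 12.3 ± 0.184 in NC (1.26, adjusted p = 7.08e-07). PPP1R3D had -1.23 (adjusted p = 0.0368), and its call was lost without each NC or miR-552-3p library (adjusted p 0.0792 to 0.146).

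Of 20 genes of the kinases that act on synthase and phosphorylase 8 rose and 4 fell on the mimic with control siRNA, where 58.4% of all genes were called. PHKA1, a regulatory subunit of phosphorylase kinase, rose by 1.62 (adjusted p = 1.26e-06), the PAS kinase PASK fell by 1.67 (adjusted p = 1.04e-06) and the calmodulin gene CALM3 fell by 1.40 (adjusted p = 2.02e-07). Of 8 genes that supply or release glucose 6-phosphate 3 rose and 2 fell. Hexokinase HK2 had 130 ± 2.01 FPKM in miR-552-3p and 21.1 ± 5.31 in NC (2.67, adjusted p = 5.32e-06), the glucose transporter SLC2A2 rose by 2.10 (adjusted p = 1.67e-07), and G6PC, which frees glucose from glucose 6-phosphate, had 0.145 ± 0.021 FPKM in miR-552-3p and 1.76 ± 0.240 in NC (-3.55, adjusted p = 8.44e-07). Of 7 other users of UDP-glucose or galactose 4 rose and 2 fell, with the ceramide glucosyltransferase UGCG at 1.67 (adjusted p = 3.3e-06), galactokinase GALK1 at -1.78 (adjusted p = 4.75e-08) and GALT at -0.65 (adjusted p = 0.000584).

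Under importin8 siRNA the mimic raised 12 and lowered 15 of the 52, with 31.7% of all genes called (15% higher, 16.7% lower). PPP1R3E (-1.14, adjusted p = 0.000149), GYG2 (-0.88, adjusted p = 0.000318), PASK (-1.14, adjusted p = 7.37e-05), G6PC (-2.02, adjusted p = 0.000136) and GALK1 (-0.98, adjusted p = 1.86e-05) were again lower, and UGCG (0.67, adjusted p = 0.00308) and the AMPK subunit PRKAA2 (0.74, adjusted p = 6.94e-05) were higher. The difference between the mimic effects was called for 23 of the 52, 9 higher and 14 lower, against 31.3% of all genes (14.2% higher, 17.1% lower), among them PPP1R3E at 1.09 (adjusted p = 0.00132), PPP1R2 at -0.89 (adjusted p = 0.000329), PHKA1 at -1.17 (adjusted p = 0.00045), SLC2A2 at -1.97 (adjusted p = 8.87e-06) and HK2 at -1.93 (adjusted p = 0.000613). The importin8 siRNA with the control mimic raised 16 and lowered 12, where 47% of all genes were called, with SLC2A2 at 2.93 (adjusted p = 6.31e-08), HK2 at 2.12 (adjusted p = 3.63e-05), HK1 at -2.37 (adjusted p = 6.74e-06), STBD1 at 1.5 (adjusted p = 0.000435), the phosphorylase kinase subunit PHKA2 at 1.1 (adjusted p = 9.72e-06) and PPP1R3E at -1.08 (adjusted p = 4.5e-05). With the mimic it raised 14 and lowered 9, where 33.5% of all genes were called, with HK1 at -1.89 (adjusted p = 4.76e-05), the AMPK subunit PRKAA1 at -0.83 (adjusted p = 1.56e-05) and the glucose 6-phosphate transporter SLC37A4 at 0.65 (adjusted p = 0.000112).

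**Figure D4:**
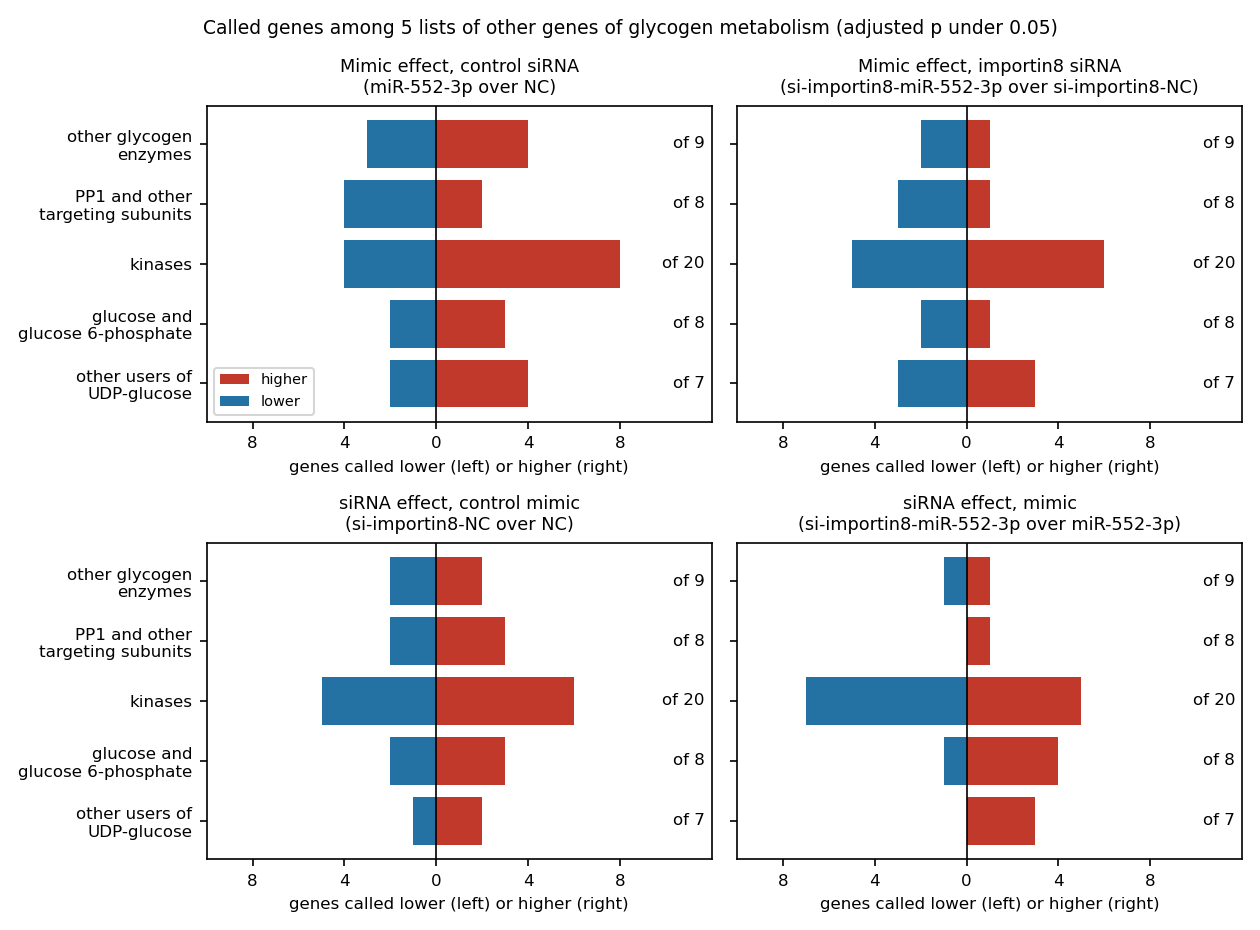
Genes called higher (right) and lower (left) in each of the 5 lists in the 4 pairwise comparisons, with the number tested at the right edge. With control siRNA the mimic raised 8 and lowered 4 of the 20 kinase genes, and in that comparison both directions occur in all 5 lists.

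Genes of similar pattern were sought for the 3 genes with the widest range of group means of log2(CPM + 0.5). Pearson's r of these values over the 8 libraries was used, among 9444 or 9445 genes with a mean of at least 10 CPM. The offset of 0.5 narrows the range of scarce genes such as PPP1R3B and GYS2. Nearest to PPP1R3C were TIMP3 (r = 0.998), MIER3 (0.998) and KEAP1 (0.998), nearest to PPP1R3B were MMP14 (0.992), DNMT3B (0.992) and GSR (0.990), and nearest to GYS2 were GLA (0.958), PLEKHG5 (0.955) and STX1A (0.950). The 8 points share 4 groups, so that any gene with the same order and spacing of group means has a high r.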

How the data were processed

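Polyadenylated RNA of HepG2 cells was sequenced with single-end reads on a DNBSEQ machine, per the labels' protocols. The authors deposited estimated counts per gene (expected counts, not whole numbers) and an expression column that is read here as FPKM from the file's values, since its header names no unit. The submitters' processing notes list HISAT2 2.0.4, Bowtie2 2.2.5, RSEM 1.2.8 and GRCh38.p12; the step each tool made is not stated there. Columns were assigned by reading their abbreviations against the sample titles. A second table of 4 of these libraries held the same values in every shared cell and was not used further.

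Counts were rounded, filtered (filterByExpr), scaled (TMM factors 0.961 to 1.06) and fitted in edgeR 4.0.16 (R 4.3.3) with 1 mean per group over all 8 libraries and robust quasi-likelihood; p-values were adjusted over 17715 genes. The steps were tested on simulated data. Alternatives were RLE or total-count scaling, DESeq2 1.42.0, limma-voom (limma 3.58.1), no filter, only the libraries compared, the replicate number as a block, and each library left out. The 9 genes, the lists and the motifs were chosen with earlier results of these data known. Named genes of the lists were drawn, per list and comparison, from up to 3 called genes with the highest absolute change. These had a mean of at least 50 counts and no overlap between groups (overlap not asked of the difference). For the mimic with control siRNA all of them are named. For the other comparisons only some are, not always those with the largest change.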

Additional observations from a re-analysis of the deposited data

Results flagged for a closer look

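For 6 of the 9 genes the mimic effect under importin8 siRNA differed from that under control siRNA by the interaction test (edgeR, adjusted over all genes), as for 31.3% of all genes tested. On the log2 scale the difference was -3.82 for PPP1R3B, -0.83 for GBE1, -0.58 for UGP2 and -0.41 for PYGB, whose mimic effects with control siRNA were 3.95, 1.33, 0.61 and 1.16. It was 1.82 for PPP1R3C and 0.59 for PGM1, whose mimic effects with control siRNA were -2.31 and -0.75. Over all genes tested, the median absolute log2 mimic effect was also smaller under importin8 siRNA, 0.316 against 0.594 with control siRNA. The importin8 siRNA with control mimic had itself moved PPP1R3B by 2.34, UGP2 by 0.75, PYGB by -0.29 and PPP1R3C by -1.57. For GBE1 and PGM1 that siRNA effect was not called (-0.29 and 0.10). The GBE1 call was lost in 7 of 14 alternatives and the UGP2 call in 2. With 2 libraries a group, no group was large enough to look for single outlying libraries.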

How the results depend on the processing

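The mimic effects with control siRNA kept their direction and side of the threshold under all 15 alternatives for 8 of the 9 genes, and GYS2 under 13. The weaker effects depended more on the fit. Under importin8 siRNA the mimic effect was called for 5 genes with only the 4 libraries compared (3 in the fit of all 8), and leaving out a library gave 3 to 5 of the 9, 3545 to 6087 of all genes (5607 with all) and 16 to 28 of the other glycogen genes (27 with all). The siRNA effect with the mimic was called for 3 genes with DESeq2 (5 with edgeR), and leaving out a library gave 3 to 6 of the 9 and 15 to 28 of the other glycogen genes (23 with all). Every sign that reversed was that of a value uncalled with all libraries. For the mimic under importin8 siRNA, UGP2 was -0.0406 with total-count scaling and -0.047 to 0.1139 with a library left out, PPP1R3B -0.0801 to 0.3307 and GYS2 -0.4316 to 3.7172. For the siRNA with control mimic, GYS1 was -0.0054 with RLE factors and with DESeq2, -0.0156 with total counts, -0.0014 with no filter and -0.0472 to 0.0646 with a library left out, GBE1 was -0.5473 to 0.0028 and PGM1 -0.0188 to 0.2113. For the siRNA with the mimic, GYS1 was -0.0181 with total counts and -0.0583 to 0.0882 with a library left out. For the difference, GYS1 was -0.0026 with total counts and -0.0689 to 0.0769 with a library left out, PYGL -0.021 to 0.1049 and GYS2 -3.7073 to 0.4421. The cause of these changes was not tested.

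Whether replicate numbers pair the samples is not said in the labels. Same-numbered libraries deviated together at most weakly, with correlations of -0.057 to 0.166 over 6 pairs of groups. A shared batch of same-numbered libraries was not tested beyond this and the replicate block. With the replicate block, 8, 4, 5, 5 and 6 of the 9 genes were called, against 8, 3, 5, 5 and 6, the added gene being GBE1 (0.50, adjusted p = 0.0276). Total-count scaling moved the median of all genes to between -0.0759 and -0.0227. Low counts limit PPP1R3B and GYS2, whose intervals are wide, and with 2 libraries a group the spread is estimated from few values.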
